A study of Mus musculus with 11 samples.

Results

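Open chromatin around the genes of proximal T cell receptor signalling was examined in naive CD4 T cells sorted by a reporter of receptor signalling, without any added stimulus. The genes were chosen by name: 40 names of receptor chains, kinases, adaptors, effectors and inhibitors of the first steps of signalling. Every peak that the authors assigned to one of these names was taken, which gave 438 of the 45508 listed peaks and 39 genes. Gads has no peak under that name, which is a synonym of Grap2. An assignment to the nearest gene does not show that a peak controls that gene.

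Each of 11 ATAC-seq libraries came from 10000 cells, whose open DNA was cut and tagged by the transposase Tn5. All mice were untreated and carried the Tg(Nr4a1-EGFP)GY139Gsat transgene, which makes green fluorescent protein under control of Nr4a1 (Nur77), together with the Foxp3tm1Flv allele, a red reporter of Foxp3, on a C57/BL6 background. Cells from spleen and lymph nodes were all CD4+, negative for the red reporter and low for CD44. Population A was reporter low and Ly6C+ (n = 2, mice 1 and 3), population B reporter intermediate and Ly6C+ (n = 3), population C reporter intermediate and Ly6C- (n = 3), and population D reporter high and Ly6C- (n = 3). The same 3 mice gave B, C and D, and their age is not given in the sources used here. Reporter level and Ly6C both differ between A and D and cannot be told apart in that comparison.

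The T cell receptor has no kinase of its own. When it binds its ligand, the kinases Lck and Fyn phosphorylate the CD3 and zeta chains, Zap70 docks there and phosphorylates the scaffolds Lat and Lcp2 (SLP-76), and these assemble Plcg1, Vav proteins and Tec kinases. Phosphatases, the kinase Csk and adaptors such as Sla (SLAP), Dok1 and Dok2 hold this cascade down. Naive T cells receive weak signals of this kind from self ligands all the time, and the Nr4a1 reporter follows their strength.

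Values are reads scaled to a common total (rppm, per the file headers), given for the libraries in the order of the mice. The libraries held 2597200 (population D, mouse 1) to 36859550 (population D, mouse 3) scaled reads as inferred from the steps of the values, so a peak at 10 rppm rested on 26.0 to 369 reads, and mouse 3 gave the deepest library of each population. Changes are differences of log2(rppm + 1) from limma with their standard errors (SE), which understate ratios at low peaks. "Called" means a Benjamini-Hochberg adjusted p below 0.05 over all 45508 peaks. The 6 peaks of the B cell markers Cd79a, Cd79b and Ebf1 summed to 35.8 to 58.0 rppm in the 11 libraries, and 0 of them were called between A and D, while Ms4a1, Pax5 and Blk had no listed peak. CD4 itself had 3 peaks, of which the highest lay between 45.4 and 65.9 rppm in the 11 libraries. Of the 21 peaks of CD4 T cell markers, among them those of Cd3e, 3 were called higher (5 with the mouse as a block) and 2 lower in D than A, and Trac had no listed peak.

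Between A and D no promoter peak of the receptor chains or of the first kinase, Lck, was called. Of the 37 promoter peaks, 1 was called lower in D, that of the inhibitory adaptor Sit1, and 0 higher. The share called among the promoter peaks of all genes was not computed. Few calls at promoters are therefore not shown to be particular to these genes. The 4 promoters printed here are the 250 bases before the RefSeq start (GRCm38.p6, the assembly of mm10), on the gene's strand. They were chosen because they carry this contrast between Sit1 and the promoters of Cd3e, Cd3d and Lck. All 4 windows lie wholly inside listed peaks. Capitals mark matches on either strand to the motif letters TGANTCA (AP-1), AAAGGTCA (NR4A), TGGAAA (NFAT), TGNGGT (RUNX), AGGAAGT (ETS), TCAAAG (TCF/LEF) and GCGTGGG (EGR), and no 2 of the marked matches overlap.
Sit1, chr4:43483710-43483959, minus strand: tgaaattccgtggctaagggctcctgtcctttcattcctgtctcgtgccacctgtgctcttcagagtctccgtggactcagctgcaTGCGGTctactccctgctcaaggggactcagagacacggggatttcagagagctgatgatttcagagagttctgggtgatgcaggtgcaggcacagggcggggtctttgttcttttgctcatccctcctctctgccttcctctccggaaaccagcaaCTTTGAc
Cd3e, chr9:45009612-45009861, minus strand: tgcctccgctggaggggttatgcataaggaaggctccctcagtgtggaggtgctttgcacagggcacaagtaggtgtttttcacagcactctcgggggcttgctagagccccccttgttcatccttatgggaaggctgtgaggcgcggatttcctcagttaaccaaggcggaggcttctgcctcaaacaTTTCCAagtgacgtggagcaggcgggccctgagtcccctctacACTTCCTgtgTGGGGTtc
Cd3d, chr9:44981536-44981785, plus strand: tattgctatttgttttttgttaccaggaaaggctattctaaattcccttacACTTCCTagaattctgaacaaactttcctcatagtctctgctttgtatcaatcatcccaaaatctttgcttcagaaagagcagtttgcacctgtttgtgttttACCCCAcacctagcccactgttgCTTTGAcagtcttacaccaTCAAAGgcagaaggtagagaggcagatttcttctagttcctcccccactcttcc
Lck, chr4:129573642-129573891, minus strand: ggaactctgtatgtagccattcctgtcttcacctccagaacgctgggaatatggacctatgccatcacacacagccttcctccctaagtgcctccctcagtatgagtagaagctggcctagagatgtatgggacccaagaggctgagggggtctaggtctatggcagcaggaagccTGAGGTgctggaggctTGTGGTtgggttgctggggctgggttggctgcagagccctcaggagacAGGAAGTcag

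The Sit1 window holds a RUNX match that begins 164 bases before the start and a TCF/LEF match at 7 bases. The Cd3e window holds NFAT, ETS and RUNX matches at 61, 18 and 8 bases before the start, and the Lck window an ETS match at 10 bases. RefSeq windows were matched for 30 of the 39 genes, which have 42 promoters between them. ETS letters were in 13 of these 42 (31.0%) and in 7.69% of all 32851 RefSeq mouse promoters. RUNX letters were in 47.6% and 40.1%, TCF/LEF letters in 19.0% and 13.8%, and NFAT letters in 19.0% and 18.6%. AP-1 letters were in 1 member promoter (Vav3, 2.38%, against 6.75%), NR4A letters in 1 (Zap70, 2.38%, against 1.34%), and the NF-kB motif in none, against 0.356%. EGR letters were in 4.76% and 4.30%. By gene, ETS letters were in 11 of 30. The windows of Ptprc overlap and share an ETS match. Peaks assigned to the 39 genes covered 29 of the 42 windows in full, and peaks assigned to other genes were not counted. A match is a string of letters and no measured site of binding.

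Of the 39 genes, 37 had a peak within 1 kb of a start, all but Skap1 and Sla. The level of these promoter peaks in population A ran from 11.5 rppm at Was, a regulator of actin, to 119 at Ptpn2, as reads over the whole peak with no division by its width. The Cd3e promoter peak (chr9:45009063-45010096) had 55.9 and 54.2 rppm in A and 42.4, 62.2 and 51.6 in D, a log2 change of -0.10 (SE 0.15, adjusted p = 0.782 by limma). The Lck promoter peak (chr4:129573428-129573929) had 20.6 and 19.2 rppm in A and 19.6, 20.5 and 25.9 in D, a change of 0.13 (SE 0.16, adjusted p = 0.707 by limma). The libraries of A and D overlapped in both peaks.

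The Sit1 promoter peak (chr4:43483371-43484061), which belongs to a transmembrane adaptor that recruits inhibitory proteins, had 27.7 and 28.7 rppm in A. It had 26.9, 24.3 and 29.0 in B, 24.1, 22.8 and 23.3 in C, and 17.7, 16.3 and 19.3 in D. Every library of D lay below every other library. The change from A to D was -0.64 (SE 0.12, adjusted p = 0.00203 by limma), and without the libraries of mouse 3, which leaves 1 library of A, the adjusted p was 0.173. With the mouse as a block in the model, the promoters of Grb2, the adaptor that brings in Sos (log2 -0.29 without the block, adjusted p = 0.0215 with it), and Vav1, an exchange factor for Rac (log2 0.28, adjusted p = 0.0283 with the block), were called too.

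**Figure D1:**
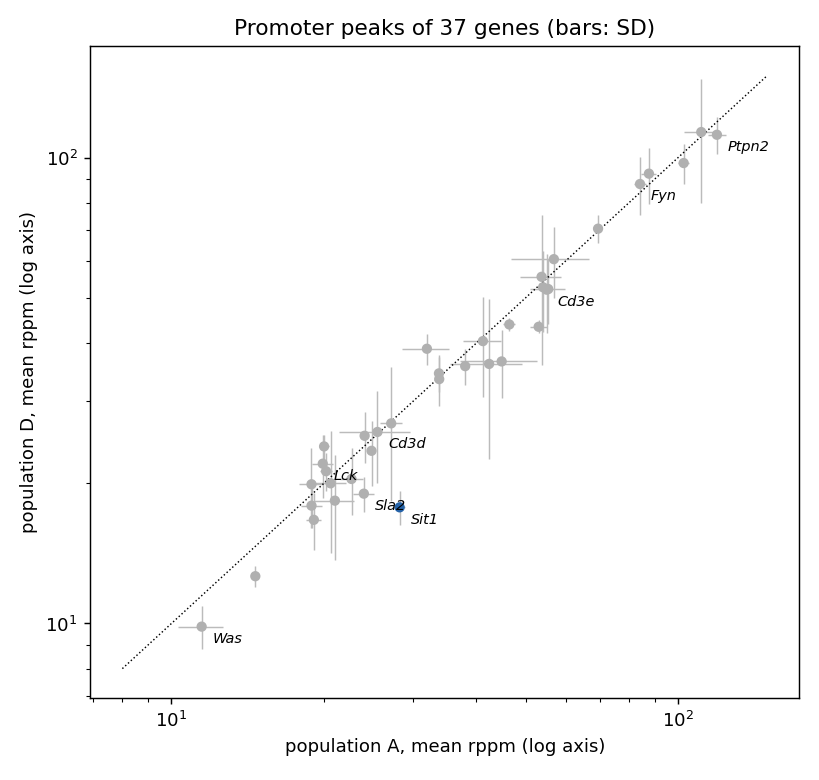
Mean accessibility of the promoter peaks of 37 genes in population A (horizontal, n = 2) and D (vertical, n = 3), in rppm on log axes, with SD bars and a dotted line of equality. The Sit1 promoter, in blue, is the called one, at 28.2 rppm in A and 17.8 in D, and the others lie along the line from Was to Ptpn2.

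Away from promoters, reporter high cells differed from reporter low cells at many peaks. Between A and D, 45 of the 438 peaks were higher in D and 22 were lower. That is 10.3% and 5.02% of the members, and over all peaks 12.4% were called, 8.7% higher and 3.74% lower, so the shares of the whole group lay near the background. The median change was -0.02 for the members and -0.04 for all peaks. Peaks of these genes sat more in introns (62.3% against 41.2% of all peaks) and less within 1 kb of a start (10.7% against 26.8%). Of the 438 peaks, 391 lay beyond 1 kb, among them 44 of the 45 higher and 21 of the 22 lower ones. The same counts for called peaks of all genes were not made. With the mouse as a block the counts were 57 higher and 37 lower, beside 12.5% and 8.79% of all peaks. They were 24 higher and 11 lower without population A replicate 3, 6 lower without population A replicate 1, 13 lower without mouse 2, and 12 higher and 3 lower without mouse 3. Of the peaks described in full below, 3 of 15 higher and 7 of 10 lower ones missed the threshold without mouse 3.

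The called peaks fell by role as follows. The receptor chains and accessory receptors had 0 higher and 1 lower of 70 peaks (0% and 1.43%). The kinases had 13 and 7 of 96 (13.5% and 7.29%). The adaptors and scaffolds had 5 and 5 of 102 (4.90% each way, 9 lower with the block). The effectors had 4 and 1 of 35 (11.4% and 2.86%), and the inhibitors of signalling 19 and 6 of 109 (17.4% and 5.50%). Ptprc (CD45), a phosphatase that both activates and restrains Lck, had 4 and 2 of 26 (15.4% and 7.69%). Over all peaks the shares were 8.7% higher and 3.74% lower. By gene, 14 had higher peaks only, 3 had lower peaks only, 8 had both and 14 had none. These counts depend on the number of peaks per gene, from 1 at Lat and Was to 38 at Prkcq. Such counts over all genes were not made. These are counts of peaks, which near 1 gene are not independent, and differences between roles were not tested.

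**Figure D2:**
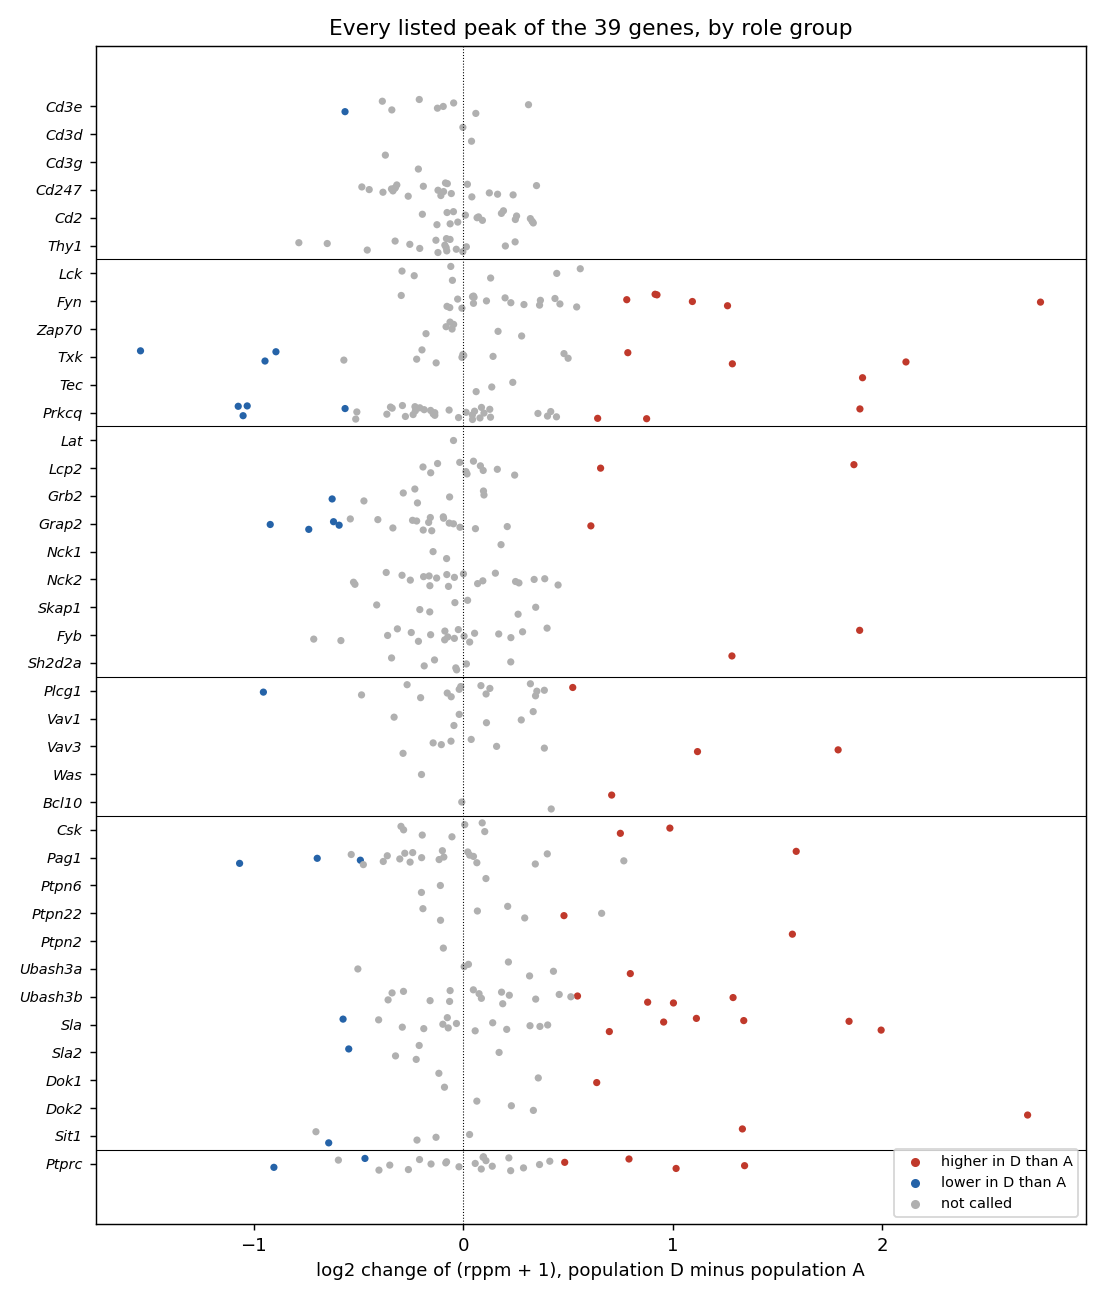
Change in log2(rppm + 1) from population A to D (horizontal) for each listed peak of the 39 genes (rows, grouped by role; 1 dot per peak). Red dots were called higher in D (45), blue lower (22) and grey were not called; the receptor chains at the top have 1 blue dot, near Cd3e.

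Some markers of regulatory T cells, which the sort excluded by the Foxp3 reporter, had peaks that were higher in D. Of the 42 peaks of Foxp3, Ikzf2, Il2ra, Ctla4 and Tnfrsf18, 14 were higher (33.3%) and 3 lower (7.14%) in D. Over all peaks the shares were 8.7% and 3.74%. With the block 21 were higher, beside 12.5% of all peaks. Of the 5 genes, 2 had higher peaks only, 1 had both and 2 had no called peak. The sum of the 42 peaks per library was 496 to 514 rppm in A, ran from 496 (B) to 530 (C) in the intermediate populations, and reached 620 to 633 in D. The defining marker Foxp3 had 1 listed peak, at 4.35 and 3.12 rppm in A and 3.85, 5.67 and 5.48 in D, with groups that overlapped (adjusted p = 0.387 by limma). Ikzf2, Il2ra, Ctla4 and Tnfrsf18 are also made by activated conventional T cells. Peaks of CD8 T and NK cell markers summed to 720 to 723 rppm in A and 651 to 708 in D, with 4 of 39 higher and 2 lower (7 lower with the block), and Ncr1 and Nkg7 had no listed peak. Peaks of myeloid and dendritic markers summed to 86.6 to 93.2 in A and 68.9 to 87.6 in D, with 1 of 13 higher and 2 lower (4 lower with the block), and Lyz2 and Csf1r had no listed peak. The part of other cells in the results was not tested. In bulk libraries a peak open in more cells and a peak more open in each cell cannot be told apart.

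Receptor chains and accessory receptors had 1 called peak among 70. No peak of Cd3d, Cd3g, Cd247 (the zeta chain), Cd2 or Thy1 was called between A and D, among 2, 2, 22, 17 and 18 peaks. Their changes ran from -0.78 to 0.35. The called peak of the group lay 6.44 kb upstream of Cd3e (chr9:45015735-45016317, intergenic), with 6.74 and 6.34 rppm in A and 3.85, 4.36 and 4.10 in D. Its change was -0.56 (SE 0.16, adjusted p = 0.0315 by limma), and the groups did not overlap. Blocking by mouse called 6 of the 70 peaks lower in D and none higher, beside 8.79% of all peaks lower and 12.5% higher. No peak of the kinases Lck and Zap70 (7 peaks each) or the scaffold Lat (1 peak, at 41.2 rppm in A and 40.4 in D) was called either, nor of the adaptors Nck1, Nck2 and Skap1, the effectors Vav1 and Was, or the phosphatase Ptpn6 (SHP-1). Under the block, calls appeared at 4 of these genes: 2 lower peaks of Cd247, 3 lower of Thy1, 1 higher and 1 lower of Nck2, and the promoter of Vav1.

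Fyn, the Src family kinase that acts beside Lck, stood among the genes with the most higher peaks, 6 of 24 with 0 lower. Its largest change lay in intron 2, 65.4 kb downstream of the start (chr10:39434791-39435522). That peak had 1.63 and 1.41 rppm in A, 3.34, 1.60 and 3.19 in B, 4.12, 4.01 and 4.23 in C, and 13.9, 16.7 and 17.7 in D. The libraries of A, B and C all stayed below 5 rppm and those of D all lay above 13. The mean was 1.52 ± 0.16 (SD, n = 2) in A and 16.1 ± 2.0 (SD, n = 3) in D, a log2 change of 2.76 (SE 0.21, adjusted p = 2.33e-06 by limma). The other 5 higher Fyn peaks changed by 0.78 to 1.26 and lay from 76.8 kb upstream to 109.6 kb downstream of the start.

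Txk and Tec, kinases of the Tec family that act on Plcg1, are neighbours on chromosome 5, and 7 of the 16 peaks assigned to Txk lie inside Tec. A peak in intron 3 of Tec that is assigned to Txk (chr5:72793018-72793904) had 1.30 and 1.41 rppm in A, 2.34, 1.37 and 2.31 in B, 4.32, 2.06 and 2.13 in C, and 10.4, 7.42 and 10.1 in D. Another peak in the same intron, assigned to Tec itself (chr5:72812823-72813355), had 2.39 and 2.82 in A, 6.01, 4.92 and 5.11 in B, 7.85, 5.55 and 6.04 in C, and 14.2, 11.9 and 11.5 in D. The changes from A to D were 2.11 (SE 0.25, adjusted p = 6.78e-05 by limma) and 1.91 (SE 0.18, adjusted p = 8.79e-06 by limma). The Tec peak was higher in every library of B than in both of A, while the Txk peak overlapped between A and B.

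Txk also had 3 lower peaks, and its intron 5 held 2 of them. One (chr5:72719737-72720118) had 4.68 and 3.52 rppm in A, 3.12, 3.21 and 3.43 in B, 1.96, 1.23 and 1.96 in C, and 0.385, 0.582 and 1.41 in D. Its libraries fell in order of population, except that the highest of D (1.41, mouse 3) lay above the lowest of C (1.23, mouse 2). The change was -1.54 (SE 0.23, adjusted p = 0.000457 by limma). The neighbouring peak (chr5:72720408-72721173) changed by -0.89 (SE 0.22, adjusted p = 0.0150 by limma), and its adjusted p was 0.178 without population A replicate 1 and 0.0515 without population A replicate 3. The third (chr5:72763516-72764064), in intron 13 of Tec, went from 15.99 and 17.01 rppm in A to 8.47, 7.85 and 7.92 in D, a change of -0.95 (SE 0.15, adjusted p = 0.000759 by limma).

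Prkcq (PKC theta), the kinase that carries the signal to Bcl10 and NF-kB, had the most peaks, 38, of which 3 were higher and 4 lower in D. A peak 29.3 kb upstream of its start (chr2:11142713-11143389) had 2.39 and 2.31 rppm in A, 1.56, 2.52 and 2.04 in B, 1.77, 3.29 and 2.04 in C, and 10.4, 14.1 and 10.3 in D. A, B and C overlapped, and every library of D lay above 10. The change from A to D was 1.89 (SE 0.22, adjusted p = 5.5e-05 by limma). In intron 1 of the same gene, a peak 33.6 kb downstream (chr2:11205687-11206199) went the other way. It had 28.3 and 29.3 rppm in A, 25.7, 29.6 and 26.5 in B, 25.9, 24.4 and 20.7 in C, and 13.1, 13.5 and 13.5 in D, with D below all others. The change was -1.05 (SE 0.12, adjusted p = 5.19e-05 by limma).

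The other 2 named lower peaks of Prkcq lay far upstream, at 126 and 132 kb. The nearer (chr2:11046119-11047160) had 5.33 and 4.13 rppm in A and 1.54, 1.16 and 2.60 in D, a change of -1.07 (SE 0.21, adjusted p = 0.00369 by limma). The farther (chr2:11039821-11040700) had 20.6 and 17.3 in A and 11.6, 6.25 and 9.09 in D, a change of -1.03 (SE 0.22, adjusted p = 0.00527 by limma). In neither did D overlap A. Without population A replicate 1 the adjusted p was 0.0705 for the nearer and 0.0835 for the farther.

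**Figure D3:**
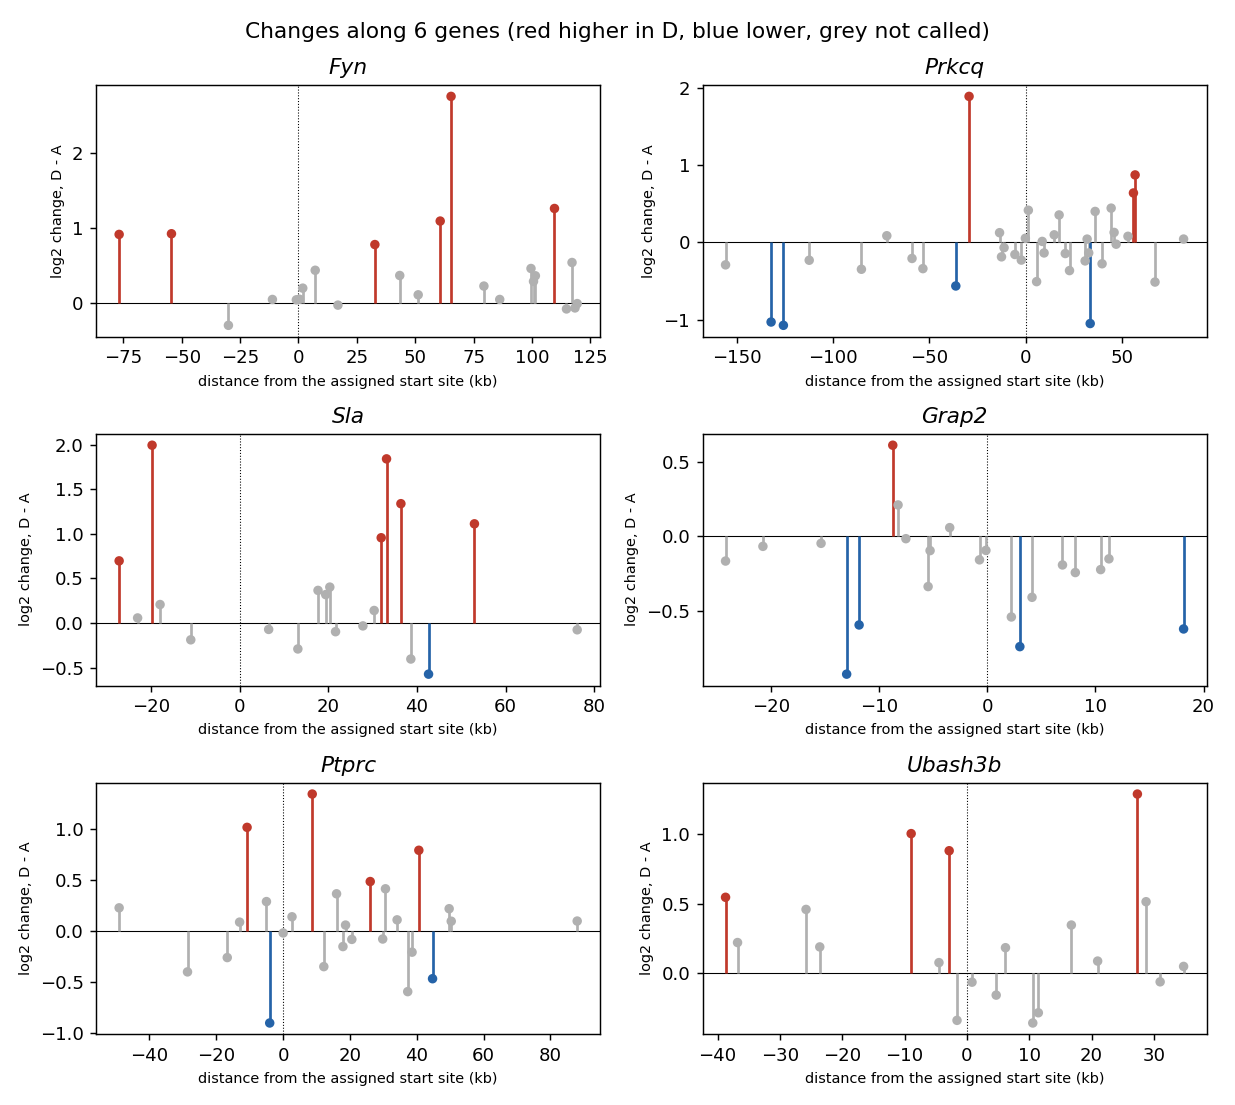
Change in log2(rppm + 1) from population A to D (vertical) at each listed peak of Fyn, Prkcq, Sla, Grap2, Ptprc and Ubash3b, against the distance of the peak from its assigned start in kb (horizontal; peaks of 1 gene can be assigned to different starts). Red was called higher, blue lower and grey not called: Fyn and Ubash3b have higher calls only (6 and 4), and 4 of the 5 called Grap2 peaks are lower.

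Among the adaptors, Fyb and Lcp2 each had a peak that was nearly closed in A. Fyb (ADAP) links the receptor to integrins, and its peak 30.7 kb upstream (chr15:6548840-6549409) had 0.435 and 0.604 rppm in A, 1.00, 0.687 and 0.559 in B, 2.16, 2.98 and 1.96 in C, and 4.24, 5.96 and 3.91 in D. A and B overlapped, C lay above both, and D lay above C. Lcp2, the scaffold SLP-76, had a peak 10.4 kb upstream, in intron 4 of the noncoding gene 4930469K13Rik (chr11:34036341-34036699), with 0.653 and 0.201 in A, 0.668, 1.03 and 0.878 in B, 0.981, 1.23 and 0.908 in C, and 3.46, 4.51 and 4.50 in D. Here D lay above all other libraries. The changes from A to D were 1.89 (SE 0.20, adjusted p = 3e-05 by limma) for Fyb and 1.87 (SE 0.19, adjusted p = 1.81e-05 by limma) for Lcp2.

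Grap2 (Gads), the adaptor that joins Lcp2 to Lat, had 4 lower peaks and 1 higher among 21. The largest decrease lay in intron 1 (chr15:80610302-80610683), with 9.14 and 9.97 rppm in A, 11.2, 8.36 and 9.66 in B, 6.28, 7.71 and 10.8 in C, and 2.69, 5.67 and 6.0 in D. D lay below the other populations, and C spread across A and B. The change was -0.92 (SE 0.27, adjusted p = 0.0362 by limma), which missed the threshold without population A replicate 1 (0.150), population A replicate 3 (0.223), population B replicate 3 (0.0539), population C replicate 2 (0.0504) or population D replicate 1 (0.0614). The other adaptor calls were the higher peaks of Sh2d2a (TSAd, 1.28, 14.4 kb upstream) and of Lcp2 in its intron 1 (0.66), and a lower peak of Grb2 (-0.63).

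Of the effectors, Vav3, a guanine nucleotide exchange factor, had both of its called peaks deep in the gene. The peak in intron 1, 80.4 kb downstream (chr3:109420648-109421617), had 3.37 and 3.22 rppm in A, 3.90, 4.92 and 4.03 in B, 5.69, 5.66 and 6.07 in C, and 14.2, 14.0 and 13.4 in D. The 4 populations did not overlap, and the spread within each was small beside the change of 1.79 (SE 0.15, adjusted p = 4.15e-06 by limma). Plcg1, the phospholipase that makes the second messengers, had 1 higher peak (0.52) and 1 lower in intron 4 (chr2:160747955-160748342). The lower one had 8.70 and 5.64 in A, 4.90, 4.92 and 5.27 in B, 5.30, 6.17 and 6.41 in C, and 3.08, 3.20 and 3.15 in D. Its change was -0.95 (SE 0.18, adjusted p = 0.00242 by limma), and its adjusted p was 0.0687 without population A replicate 1, the highest library. Bcl10, part of the complex downstream of Prkcq, had a higher peak 7.35 kb upstream (0.71).

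Among the inhibitors of the cascade, the largest change was at Dok2, an adaptor that recruits negative regulators of Ras, 24.4 kb downstream of the start (chr14:70798239-70799240, intergenic). Its peak had 4.02 and 2.82 rppm in A, 7.24, 7.90 and 7.34 in B, 11.8, 10.2 and 12.1 in C, and 40.0, 19.8 and 25.7 in D. The 4 populations followed one another without overlap, and within D mouse 1 stood above the other two. The change from A to D was 2.69 (SE 0.23, adjusted p = 4.8e-06 by limma).

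Sla, the adaptor that targets receptor chains for degradation, had 6 higher peaks and 1 lower among 20. It lies within the gene Tg, which encodes thyroglobulin and is not a T cell gene, and 5 of its peaks are annotated to Tg, 2 of them called higher. The peak at the end of Tg, 19.9 kb upstream of Sla (chr15:66851481-66851894), had 0.435 and 0.503 rppm in A, 0.668, 1.03 and 0.958 in B, 0.392, 1.23 and 1.08 in C, and 5.00, 4.36 and 5.24 in D. Within intron 2 of Sla, another peak (chr15:66798583-66798843) had 0.979 and 1.41 in A, 2.00, 2.52 and 2.15 in B, 1.37, 2.57 and 2.27 in C, and 5.78, 7.85 and 7.0 in D. In both, B and C overlapped and D stood apart. The changes were 2.00 (SE 0.21, adjusted p = 2.1e-05 by limma) and 1.84 (SE 0.21, adjusted p = 3.99e-05 by limma). A further intron 2 peak (chr15:66795335-66795604) changed by 1.34, with an adjusted p of 0.000277 by limma and 0.0639 without mouse 3.

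Pag1 anchors the inhibitory kinase Csk at the membrane, and its peaks moved in both directions, 1 higher and 3 lower of 23. The higher one lay in intron 1, 66.5 kb downstream (chr3:9766946-9767454), with 2.39 and 2.42 rppm in A, 2.90, 2.63 and 2.51 in B, 5.69, 3.50 and 3.15 in C, and 11.9, 7.27 and 9.06 in D. The largest decrease lay 64.3 kb upstream (chr3:9897760-9898142), from 4.68 and 5.34 in A, through 2.67, 4.46 and 3.35 in B and 2.94, 3.81 and 3.80 in C, to 1.54, 1.75 and 2.36 in D. D lay apart from A, B and C in both peaks, in opposite directions. The changes were 1.59 (SE 0.23, adjusted p = 0.000297 by limma) and -1.07 (SE 0.20, adjusted p = 0.00273 by limma), and without mouse 3 the adjusted p values were 0.0610 and 0.166. Csk itself had 2 higher peaks, of 0.99 and 0.75, among 9.

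Ptpn2, a phosphatase that acts on Lck and Fyn, had a higher peak in its intron 2 (chr18:67699476-67700013), with 2.50 and 1.91 rppm in A, 2.56, 2.63 and 2.35 in B, 3.92, 3.70 and 3.06 in C, and 11.2, 7.85 and 6.95 in D. Its promoter peak was not called (log2 -0.09, adjusted p = 0.661 by limma). Sit1 showed the same kind of contrast with its promoter called lower: a peak 10.0 kb downstream (chr4:43473341-43474052) had 2.17 and 2.11 in A, 2.00, 1.72 and 2.55 in B, 1.37, 2.78 and 2.75 in C, and 5.78, 7.27 and 7.87 in D. The changes of the distal peaks were 1.57 (SE 0.20, adjusted p = 0.000103 by limma) for Ptpn2 and 1.33 (SE 0.22, adjusted p = 0.00107 by limma) for Sit1, and the latter had an adjusted p of 0.134 without mouse 3. Ubash3b (Sts-1), a phosphatase that dampens Zap70, had 4 higher peaks of 19, with changes of 0.55 to 1.29. Its relative Ubash3a had 1 of 7 (0.80), Ptpn22 1 of 7 (0.48) and Dok1 1 of 4 (0.64, inside the gene M1ap), and Sla2 had 1 lower peak of 5 (-0.55).

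Ptprc had 4 higher and 2 lower peaks. The largest increase lay in intron 2, 8.71 kb downstream (chr1:138166110-138166721), with 7.29 and 6.44 rppm in A, 7.91, 9.96 and 11.1 in B, 9.03, 12.4 and 10.4 in C, and 18.9, 19.9 and 18.04 in D. B and C overlapped between A and D. The largest decrease lay 4.01 kb upstream (chr1:138179206-138179428), from 5.11 and 5.34 in A to 1.54, 2.76 and 2.85 in D. The changes were 1.34 (SE 0.17, adjusted p = 8.98e-05 by limma) and -0.90 (SE 0.20, adjusted p = 0.00844 by limma). The decrease had an adjusted p of 0.0632 without population A replicate 1 and 0.0830 without population A replicate 3.

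**Figure D4:**
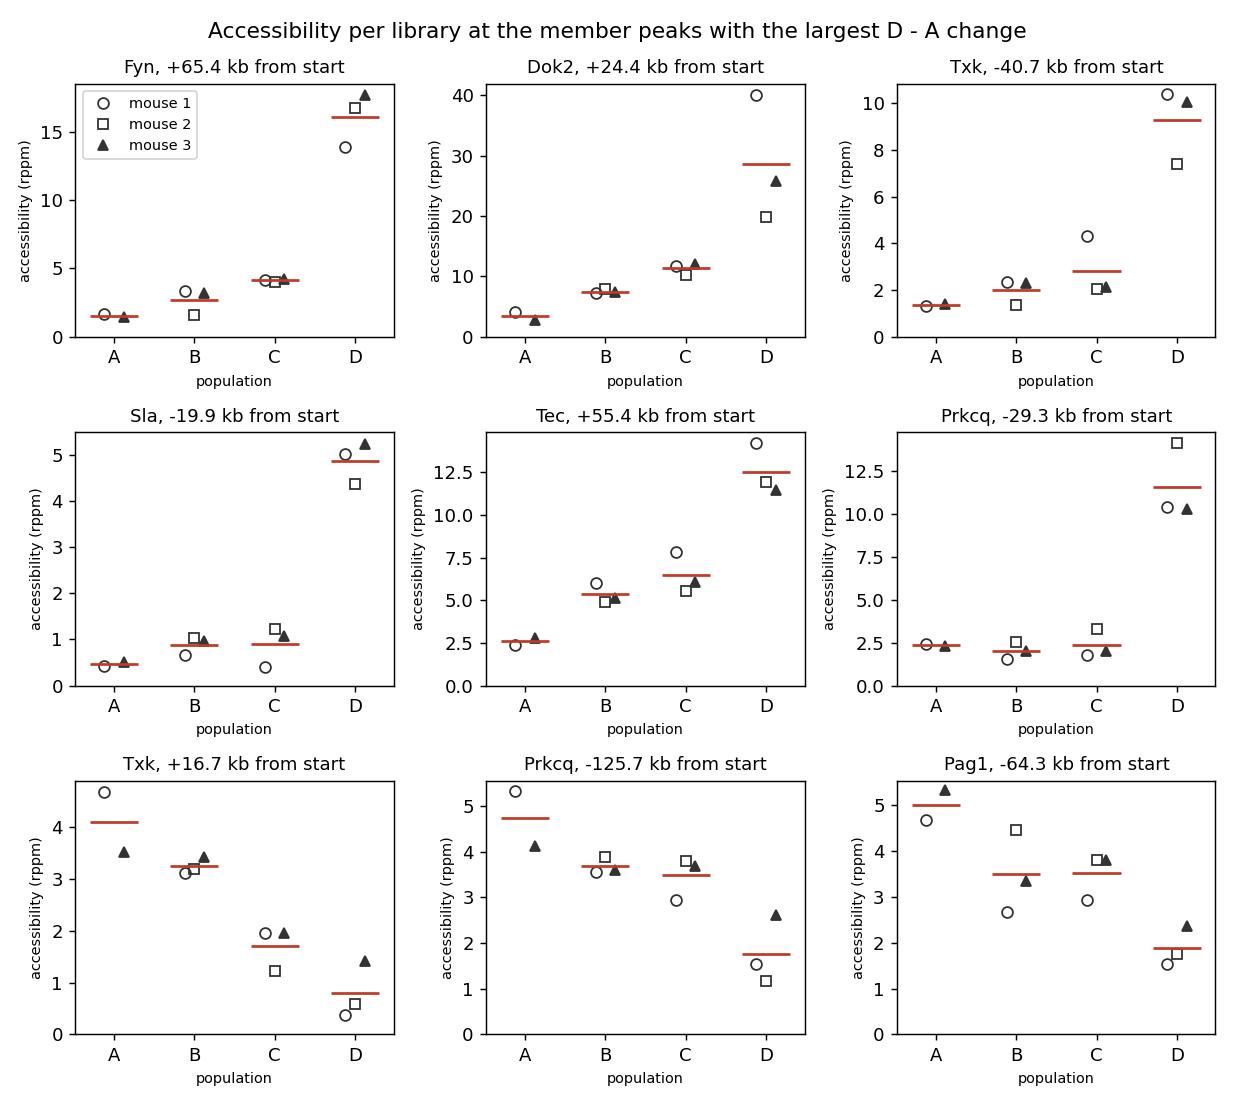
Accessibility in rppm (vertical, linear, from 0) in each of the 11 libraries by population (horizontal) at the 6 higher and 3 lower member peaks with the largest change from A to D and 2 rppm or more, on average, in whichever population is higher. Symbols mark the mouse and red lines the population mean; in the Fyn panel the libraries of D lie from 13.9 to 17.7 rppm and all others below 5.

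The neighbouring steps were compared in the same way, and a step without a call can still hold part of a change. Between A and B, which differ in reporter level among Ly6C+ cells, 0 of 438 peaks were called by limma, as over all peaks (0% called). At an unadjusted p below 0.05 there were 11 of 438 (2.68% of all peaks). Blocking by mouse called no member in this step either, beside 0.0461% of all peaks higher and 0.0132% lower. Between B and C, which differ in Ly6C at intermediate reporter, 0 members were called by limma, beside 0.0022% of all peaks, and 14 had an unadjusted p below 0.05 (4.0% of all peaks). With the mouse as a block, 1 member was called higher there and 0 lower, beside 0.156% and 0.0374% of all peaks. It was the upstream Fyb peak (chr15:6548840-6549409, log2 0.94, adjusted p = 0.0380 by limma). Population A had 2 libraries, so small steps from it were less detectable than those between B, C and D.

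From C to D, which differ in reporter level among Ly6C- cells, 28 members were higher and 7 lower, beside 4.51% and 1.49% of all peaks (6% in either direction). The 3 largest increases were at the Prkcq peak 29.3 kb upstream (1.92, SE 0.20, adjusted p = 5.99e-05 by limma), the Fyn intron 2 peak (1.73, SE 0.19, adjusted p = 0.000107) and the Sla peak at the end of Tg (1.65, SE 0.18, adjusted p = 0.000115). The 3 largest decreases were at Prkcq (chr2:11205687-11206199, -0.77) and Plcg1 (chr2:160747955-160748342, -0.75), and at the Prkcq peak 126 kb upstream (-0.72, adjusted p = 0.0401). The last of these missed the threshold in every leave-out run but those without population C replicate 1 and population D replicate 3, with adjusted p values of 0.0541 to 0.438. The Plcg1 step missed it without population C replicate 2 (0.0522) and without population C replicate 3 (0.0580).

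In every one of the 28 higher and 7 lower peaks the 3 mice moved the same way from C to D. The peaks were chosen by calls on these same libraries, so this agreement is no separate evidence. Of them, 26 higher and 7 lower ones were called between A and D as well. The other 2 higher ones were in Prkcq intron 1 (chr2:11173474-11174179) and Ptprc intron 2 (chr1:138144294-138144712). Blocking by mouse gave 44 higher and 23 lower, beside 6.82% and 4.53% of all peaks. The 35 calls became 23 without population C replicate 2 or population C replicate 3, 13 without mouse 2 and 4 without mouse 3. D against A and D against C share the libraries of D, so their calls are not independent.

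Among the 45 peaks higher in D than A, the population means rose in the order A, B, C, D in 31 (68.9%), against 74.0% of all peaks called higher. Among the 22 lower ones, 14 (63.6%) fell in that order, against 67.1%. The median share of the whole change that fell between C and D was 65.2% for higher and 70.5% for lower members, against 58.7% and 62.9% over all called peaks. A change of at least 1 on the log2 scale was reached by 24 of the 45 and 5 of the 22. Over all called peaks it was reached by 2030 of 3957 higher and 273 of 1701 lower ones. In both mice with a library of A, all 45 and 22 peaks moved in the called direction. These peaks were likewise chosen by calls on the same libraries, which largely fixes that outcome.

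The reporter step within Ly6C- cells was set against that within Ly6C+ cells by the interaction, (D - C) - (B - A). The first step runs from intermediate to high reporter, the second from low to intermediate. Ly6C class and reporter range therefore cannot be told apart in this contrast. The interaction called 1 member higher and 0 lower, beside 0.609% and 0.022% of all peaks (0.631% in either direction). That member was the Prkcq peak 29.3 kb upstream, with a step of 1.92 from C to D and -0.16 from A to B. With the mouse as a block 7 members were higher and 3 lower, beside 1.35% and 0.815% of all peaks, and among them were 2 peaks of Fyn and 1 each of Sit1, Sla, Vav3 and Txk. The interaction called 0 members without population A replicate 1, 4 without population D replicate 1, 2 without mouse 1, and 0 without mouse 2 or mouse 3.

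Other genes of the same pathway made a list of 40. Of these, 36 had peaks, 299 in all, and Dok3, Trac, Trbc1 and Trbc2 had none. Between A and D 34 peaks were higher (11.4%) and 22 lower (7.36%), beside 8.7% and 3.74% of all peaks. With the mouse as a block there were 51 and 37, beside 12.5% and 8.79% of all peaks. By gene, 15 had higher peaks only, 8 lower only, 2 both and 11 none, again without such counts over all genes. Cd6 and Cd5, surface receptors that restrain signalling, had 5 of 9 and 3 of 5 peaks higher, and Cblb, a ubiquitin ligase that does the same, 4 of 22. Rasgrp1, which activates Ras, and Pdcd1 (PD-1) had 3 of 26 and 3 of 6 higher. Rhoh, needed for Zap70 function, had 7 of 30 lower and 0 higher, and Themis, a regulator of thymocyte signalling, 3 of 16 lower and 0 higher. These genes were picked for mention after their counts were seen. Among those not picked, Abi1 had 3 of 9 peaks higher, Map4k1 2 of 4 and Btla 1 of 8. Cbl, Dgka, Lax1 and Ptpn7 had 0 called.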

How the data were processed

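ATAC-seq values came as 1 deposited table of 45508 peaks on mm10 with an assigned gene, an annotation and 1 RPM value per library (called rppm per the file headers), scaled by a total that no source used here defines. Bowtie and MACS2 are named in the submitters' processing notes, without versions or roles. All listed peaks reached 1 rppm in at least 3 libraries, and the members in at least 5. Read totals were inferred from the step of low values (100% whole within 0.1 read). Log2(rppm + 1) values were tested with limma 3.58.1 (R 4.3.3), with 1 mean per population, all 11 libraries, a variance trend and no mouse term, two-sided, adjusted over all peaks within a contrast; the code was tested on simulated data. Libraries of 1 mouse come from the same animal, and their deviations from the population means correlated at 0.183 to 0.556 (n = 15 pairs). Blocked values are therefore given for many counts. Counts of single genes are mostly given without the block, which changed some of them. With it, between A and D, Prkcq had 5 higher and 5 lower peaks, Fyn 8 and 0, and Pag1 2 and 4. Members and lists were chosen with earlier results of these data known. Peaks were named in full where among the 15 higher and 10 lower with the largest change from A to D (at least 2 rppm in the higher population), the 3 largest each way in a step, up to 5 by the interaction, and called promoters; other called peaks by their change. Sequences are from RefSeq; motif shares over peaks were not computed because no genome was used here. Inferred reads can include duplicates of a fragment.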

Additional observations from a re-analysis of the deposited data

Results flagged for a closer look

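At the Prkcq peak 29.3 kb upstream of the start (chr2:11142713-11143389), 2 reporter steps differed. The step from intermediate to high in Ly6C- cells was larger than that from low to intermediate in Ly6C+ cells. Ly6C class and reporter range differ together there and cannot be told apart. The interaction was 2.07 on the log2 scale (SE 0.30, adjusted p = 0.00609 by limma). The libraries held 2.39 and 2.31 rppm in A, 1.56, 2.52 and 2.04 in B, 1.77, 3.29 and 2.04 in C, and 10.4, 14.1 and 10.3 in D, so the step was seen in all 3 mice between C and D and in neither mouse between A and B by more than 1 rppm. With the mouse as a block it was 2.22 (adjusted p = 0.000408). The adjusted p was 0.0540 without population A replicate 1, 0.0734 without mouse 2, 0.823 without mouse 3 and 0.259 with all libraries thinned to the depth of the shallowest. Groups of 2 or 3 libraries are too small for a test of single outlying libraries.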

How the results depend on the processing

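Counts of called peaks moved with the processing, and the directions of the named peaks did not under the settings run. For the 45 peaks higher in D than A, a minimum mean of 5 rppm (which removes peaks from the test) gave 23 and thinning every library to the depth of the shallowest gave 24; leaving out libraries gave 12 to 51. For the 22 lower peaks, the mouse as a replicate block gave 37, thinning 8, and a model of the compared populations alone 10, with 3 to 26 when libraries were left out. From C to D, 35 calls became 67 with the block, 13 with the minimum mean, 13 with thinning, 21 with the compared populations alone, and 4 to 40 with libraries left out. From B to C the block gave 1 call. For the interaction (1 call), a pseudocount of 5 gave 7, the minimum mean 0, median-of-ratios scaling 3, the block 10 and thinning 0, and leaving out libraries 0 to 4. Of the values of named peaks under these settings, 612 kept their direction and their side of the threshold, 62 kept their direction but missed the threshold (15 of them without mouse 3, 11 with thinning and 8 without population A replicate 1), and 0 reversed. Where a setting removes libraries or peaks it has less to test; otherwise the cause was not tested. Depth limits the peaks near 1 rppm most: 1 rppm is under 3 reads in the shallowest library. A planned count test on recovered reads was not run.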

Other observations

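At some peaks called between A and D, the libraries of B or C already overlapped those of D. The Dok1 peak inside M1ap (chr6:83013363-83014018) had 4.46 and 4.13 rppm in A, 5.79, 5.15 and 3.95 in B, 8.24, 9.46 and 7.35 in C, and 6.93, 7.13 and 7.65 in D, so that C and D overlapped while B overlapped A. The Csk peak in intron 2 (chr9:57646817-57647027) had 2.39 and 3.22 in A, 5.01, 6.52 and 4.99 in B, 3.73, 4.63 and 4.68 in C, and 5.39, 7.85 and 6.46 in D, and every library of B lay above both of A. The Fyn peak 32.7 kb downstream (chr10:39402001-39403074) had 13.4 and 11.4 in A and 22.8, 18.2 and 19.0 in C, against 24.6, 18.8 and 22.8 in D. These were picked after their values were seen, and none of their single steps was called, except the Csk step from C to D with the mouse as a block.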
